A study of Mus musculus with 2 samples.

Results

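The matrix metalloproteinases and their inhibitors were followed through 10 mouse genes: Mmp2, Mmp3, Mmp9, Mmp10, Mmp13 and Mmp14, the inhibitors Timp1, Timp2 and Timp3, and Reck. Their probe sets were taken by symbol, keeping those annotated to 1 of these genes and to no other. This gave 22 probe sets of 45101 on the array, and the 10 genes were among 18194 with a probe set of their own. The samples were 2 Affymetrix arrays of 1 group: total RNA of a mouse embryonic stem (ES) cell line of genotype Del1.3MbWBS, a 1.3 Mb deletion of the region lost in Williams-Beuren syndrome, a disorder of elastic tissue, heart and cognition. The cells grew in medium with leukaemia inhibitory factor and 20% serum replacement, always on a layer of feeder cells. The labels name 1 line and call the arrays biological replicates. They do not say how many copies of the region were lost, nor whether the replicates came from separate cultures. How much of the spread between them is technical is therefore not known. No cells without the deletion and no feeder cells alone were analysed here. The values therefore describe a culture, and no effect of the deletion was measured.

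Matrix metalloproteinases are zinc-dependent enzymes that cut collagens, proteoglycans, other proteinases and growth factor carriers outside the cell. They are made as inactive precursors whose propeptide must be cut away, and the TIMP proteins block the active enzymes by binding the catalytic zinc site. Reck is an inhibitor anchored in the cell membrane. Mesenchymal cells such as fibroblasts are a classical source of these proteins, and transcription of several of the genes responds to the AP-1 factors of the Fos and Jun families.

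Mmp3, Mmp10 and Mmp13 lie in 1 cluster of metalloproteinase genes on mouse chromosome 9, and their promoters are shown with that of Timp1 because the arrays gave the cluster genes very different values. Each sequence runs from 250 bases before to 50 bases after the start of the gene, 5′ to 3′ on the plus strand (RefSeq, build GRCm38.p6). They come from chr9:7445572-7445871 for Mmp3, chr9:7502092-7502391 for Mmp10, chr9:7272264-7272563 for Mmp13 and chrX:20869916-20870215 for Timp1. The capitals mark TGANTCA, the AP-1 consensus, in the metalloproteinase promoters, and TGAGTAA, a 1-letter relative chosen after the sequence was seen, in Timp1.
Mmp3: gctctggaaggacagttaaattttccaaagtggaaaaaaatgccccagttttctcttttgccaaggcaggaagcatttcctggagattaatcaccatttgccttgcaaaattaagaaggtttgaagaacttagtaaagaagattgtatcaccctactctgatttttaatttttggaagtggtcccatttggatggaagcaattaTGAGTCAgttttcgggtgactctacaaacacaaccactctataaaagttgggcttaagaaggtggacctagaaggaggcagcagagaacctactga
Mmp10: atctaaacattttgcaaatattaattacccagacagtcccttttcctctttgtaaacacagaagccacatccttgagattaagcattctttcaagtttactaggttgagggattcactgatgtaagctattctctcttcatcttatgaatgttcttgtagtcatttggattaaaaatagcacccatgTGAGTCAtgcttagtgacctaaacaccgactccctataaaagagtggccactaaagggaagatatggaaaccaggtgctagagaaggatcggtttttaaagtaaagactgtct
Mmp13: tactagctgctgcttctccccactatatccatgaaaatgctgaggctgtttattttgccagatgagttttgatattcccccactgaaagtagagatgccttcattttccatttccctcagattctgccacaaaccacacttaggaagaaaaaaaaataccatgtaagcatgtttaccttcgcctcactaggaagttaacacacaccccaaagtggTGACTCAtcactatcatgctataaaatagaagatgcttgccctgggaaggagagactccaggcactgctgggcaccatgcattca
Timp1: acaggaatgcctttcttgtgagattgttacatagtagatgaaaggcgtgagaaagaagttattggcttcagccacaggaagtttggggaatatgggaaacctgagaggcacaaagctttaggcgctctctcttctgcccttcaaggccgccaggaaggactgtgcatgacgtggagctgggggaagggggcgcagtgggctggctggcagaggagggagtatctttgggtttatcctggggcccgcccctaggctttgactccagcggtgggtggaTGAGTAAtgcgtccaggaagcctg

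TGANTCA, which reads the same on both strands, occurred once in each of the 3 metalloproteinase promoters and in none of the other 5 promoters available for these genes (Mmp14, Timp1, Timp2, Timp3 and Reck). Of all 32851 mouse promoters of the same length, 7.81% held it. The match began 46 bases before the start in Mmp3, 63 bases before it in Mmp10 and 35 bases before it in Mmp13. Each of the 3 also held TATAAA, searched on both strands, at 39, 34 and 19 bases after the first base of the TGANTCA match, and 13.6% of all promoters held those letters. The motifs do not overlap. TGAGTAA, searched on both strands, began at base 27 after the start in Timp1, and 2.68% of all promoters held it. The promoters of Timp2, Timp3 and Reck were rich in G and C, with 68.7%, 67.0% and 69.3%. Those of Mmp3, Mmp10 and Mmp13 had 40.0%, 37.7% and 43.7%. Timp1 at 55.0% and Mmp14 at 56.0% lay between, and the median over all promoters was 52.7%. These are matches of letters and not measured binding sites.

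All 10 genes were above background on both arrays. Values are log2 expression values made by the authors with RMA, a method that subtracts background, equalises the distributions of the arrays and gives 1 value per probe set. To set a background, the brightest probe sets of 39 genes for olfactory receptors, which such a culture is not expected to transcribe, were ranked, and their 95th percentile served as the threshold. It was 5.59 for the mean of both arrays. A gene had to exceed it in the mean, and the corresponding threshold on each array, with its brightest probe set. Over the whole array 68.4% of genes did so, and whether the 10 of 10 departs from that share was not tested. The median of the 10 brightest values was 11.69, against 7.19 over all genes. Probes differ in how strongly they bind, so these values place a gene against background and do not rank genes by transcript number.

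**Figure D1:**
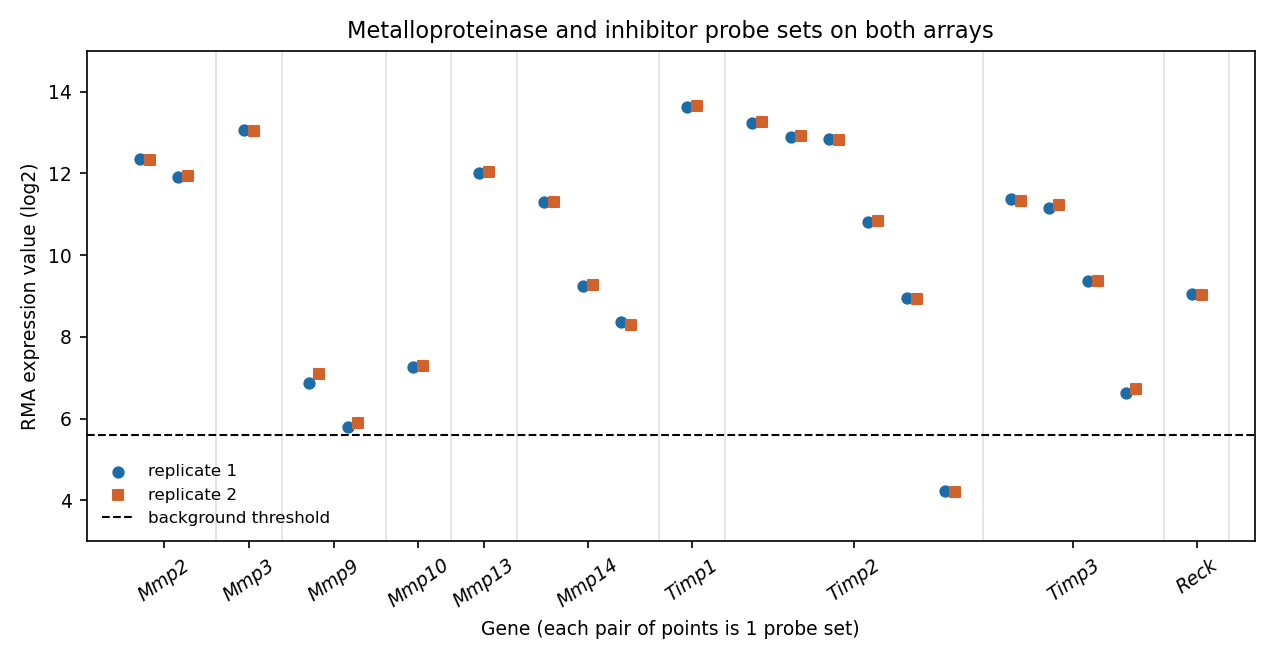
Every probe set of the 10 genes, with the RMA value (log2) on the y axis, replicate 1 as circles, replicate 2 as squares and the background threshold of 5.59 as a dashed line. Of 22 probe sets, 21 sit above the line, and the points of a pair lie close together while the probe sets of Mmp14, Timp2 and Timp3 spread widely.

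The gelatinases, which digest denatured collagen and basement membrane collagen, gave contrasting values. Mmp2 measured 12.36 on replicate 1 and 12.33 on replicate 2 with its brightest probe set (1439364_a_at), a mean of 12.35 ± 0.021 (SD, n = 2), or 6.76 log2 units above the threshold. A second Mmp2 probe set, 1416136_at, gave 11.90 and 11.93. Both stood far above background on both arrays. Mmp9, the other gelatinase, measured 6.88 on replicate 1 and 7.08 on replicate 2 (1416298_at), a mean of 6.98 ± 0.14. Its second probe set, 1448291_at, gave 5.79 and 5.89, only 0.25 log2 units above the threshold in the mean. The brightest Mmp9 probe set lay 1.39 log2 units above the threshold, the smallest margin of the 10 genes, and both of its probe sets were higher on replicate 2.

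The stromelysins cut proteoglycans, fibronectin and the propeptides of other metalloproteinases. Mmp3 measured 13.07 on replicate 1 and 13.05 on replicate 2 (1418945_at), a mean of 13.06 ± 0.016, or 7.47 log2 units above the threshold. Mmp10, its closest relative by class, measured 7.25 and 7.28 (1420450_at), a mean of 7.27 ± 0.021 and 1.68 log2 units above the threshold. The paralogs are related in sequence, and whether the probe set of Mmp10 also binds Mmp3 transcripts was not tested. Mmp13, the main enzyme in rodents that cuts intact fibrillar collagen, measured 12.01 and 12.04 (1417256_at), a mean of 12.03 ± 0.022. Each of these 3 genes rests on a single probe set, and their replicates differed by at most 0.031 log2 units.

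Mmp14 encodes a metalloproteinase anchored in the plasma membrane, which cuts collagen at the cell surface and activates the precursor of Mmp2. Its brightest probe set, 1448383_at, measured 11.30 on replicate 1 and 11.31 on replicate 2. Its other probe sets gave means of 9.26 ± 0.0073 (1440920_at) and 8.32 ± 0.045 (1416572_at). All 3 were above background, so the gene's detection did not depend on the probe set, although its level did.

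The TIMP genes among the members all lay far above background with their brightest probe sets. Timp1, an inhibitor that acts on most secreted metalloproteinases and poorly on Mmp14, measured 13.63 on replicate 1 and 13.66 on replicate 2 (1460227_at), a mean of 13.65 ± 0.016 and 8.06 log2 units above the threshold. Timp2, which inhibits Mmp2 and also links its precursor to Mmp14 for activation, measured 13.22 and 13.26 with 1454677_at, a mean of 13.24 ± 0.027. Timp3, which stays bound to the matrix and also inhibits membrane sheddases such as Adam17, measured 11.36 and 11.33 with 1449335_at, a mean of 11.35 ± 0.023. Both arrays gave each inhibitor nearly the same value.

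Timp2 and Timp3 showed how far the probe sets of 1 gene can part. Of 6 Timp2 probe sets, 1460287_at and 1433662_s_at had means of 12.90 and 12.84, 1450040_at 10.82 and 1420924_at 8.94. The sixth, 1437081_at, measured 4.24 on replicate 1 and 4.19 on replicate 2. It was the only member probe set of the 22 that was not above background, where 61.8% of all single-gene probe sets were above it. The 4 Timp3 probe sets, annotated with 1 shared sequence record, had means of 11.35, 11.19, 9.37 and 6.67. Which part of each transcript these probes address was not analysed here.

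Reck, which inhibits Mmp2, Mmp9 and Mmp14 at the cell surface and is known also as a co-receptor for Wnt7 ligands, measured 9.04 on replicate 1 and 9.03 on replicate 2 (1450784_at). Its mean was 9.04 ± 0.0079, or 3.45 log2 units above the threshold. Timp4, the remaining TIMP gene, was not above background, at 5.48 and 5.57 with the brighter of its 2 probe sets. Timp4 thus lay just under the threshold on both arrays.

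The cluster on chromosome 9 held genes far above background beside genes that were not above it. In the RefSeq gene order it comprises 10 metalloproteinase genes with no other protein-coding gene between them, and 9 of them had a probe set of their own. Mmp3, Mmp10 and Mmp13 were above background, and so were 2 of the other 6 measured genes. That made 5 of 9, where 68.4% of all genes were above background, and the difference was not tested. Mmp12, which encodes the macrophage elastase, measured 6.80 on replicate 1 and 7.01 on replicate 2. Mmp7, which encodes matrilysin, an enzyme typical of epithelia, measured 5.63 and 5.62 and lay just above the threshold.

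The other 4 measured genes of the cluster were not above background. Mmp1a and Mmp1b, the mouse relatives of human interstitial collagenase, measured 4.21 and 4.42, and 4.04 and 4.48, on replicates 1 and 2. Mmp8, the neutrophil collagenase, measured 4.68 and 4.86. Mmp20, an enzyme of tooth enamel, measured 3.53 and 3.92. Mmp3 lies between Mmp1b and Mmp1a in gene order, so a gene above background had neighbours on either side that were not. TGANTCA occurred in a promoter of 8 of the 10 cluster genes, all 8 of them measured. Of these, 5 were above background and 3 (Mmp1b, Mmp1a and Mmp20) were not, a share near the 68.4% of all genes. The letters TGANTCA were thus present in genes with values from 3.73 to 13.06. TATAAA occurred in a promoter of every measured gene of the cluster, among them the 4 that were not above background.

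**Figure D2:**
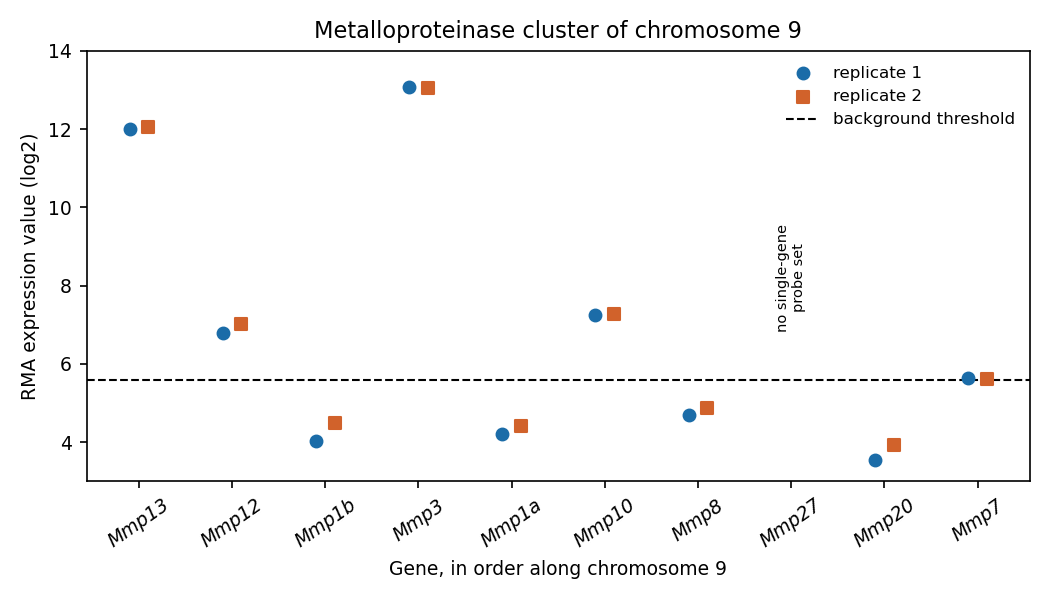
RMA value (log2) of the brightest probe set of each metalloproteinase gene of the chromosome 9 cluster, in gene order and not to distance, with replicate 1 as circles, replicate 2 as squares and the threshold of 5.59 dashed. Mmp13 and Mmp3 stand at 12.03 and 13.06, while Mmp1b, Mmp1a, Mmp8 and Mmp20 lie below the line on both arrays.

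Markers of both ES cells and fibroblasts were above background in this culture, which grew on a layer of feeder cells. No feeder cells alone were analysed, so the cells behind any value given cannot be told apart. All 8 ES cell markers were above background, against 68.4% of all genes, with values between 9.76 and 14.09. Among them were Pou5f1 at 12.63 ± 0.020, Nanog at 12.11 ± 0.063, Sox2 at 12.11 ± 0.047 and Zfp42 at 12.39 ± 0.035. All 10 fibroblast markers were above background as well, beside the same 68.4%, with values between 10.78 and 14.87. Among them were Col1a1 at 12.67 ± 0.021, Col1a2 at 14.87 ± 0.0061, Col3a1 at 14.86 ± 0.0025 and Thy1 at 10.78 ± 0.019. For neither list was the difference from that share tested. Which cells the metalloproteinase transcripts came from was not tested. In the RNA of such a culture a smaller share of cells of a type and less RNA per cell cannot be told apart.

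Beside Mmp9 and Mmp12, which macrophages and neutrophils are known to make, 4 of 6 leukocyte markers were above background, a share near the 68.4% of all genes, and the 6 ranged from 3.92 to 9.33. Adgre1 measured 5.74 ± 0.11, Cd68 7.45 ± 0.039, Csf1r 6.73 ± 0.19 and Lyz2 9.33 ± 0.010, whereas Ptprc (4.05 ± 0.13) and Itgam (3.92 ± 0.077) were not above background. With the 99th percentile of the olfactory receptor genes Adgre1 no longer counted as above background, which left 3 of 6. Its mean still exceeded the threshold for the mean, 5.66, so what it did not pass was a threshold on an individual array. Of 4 endothelial markers 3 were above background, Pecam1 at 6.20 ± 0.14, Tek at 6.15 ± 0.19 and Kdr at 6.67 ± 0.11, and Cdh5 was not (4.47 ± 0.087). Of 4 endoderm markers 3 were above it, Gata6 at 7.72 ± 0.013, Sox17 at 5.81 ± 0.043 and Foxa2 at 5.72 ± 0.029, and Gata4 was not (5.45 ± 0.050). Sox17 and Foxa2 lay close to the threshold, and the endoderm count was 2 of 4 at the 99th percentile and 1 of 4 with vomeronasal and taste receptor genes as the reference. The endothelial and endoderm counts of 3 of 4 are near the share of all genes. The part of these cell types in the Mmp9 value was not tested.

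Of the genes that act around the metalloproteinases, 46 of 53 measured over 6 lists were above background, where 68.4% of all genes were. For no list was the difference from that share tested. Among the remaining Mmp genes and Timp4, 8 of 13 were above background, a smaller share than that of all genes. The 8 include Mmp11 (8.26 ± 0.012), a stromelysin-class enzyme of stromal cells, and Mmp16 (7.42 ± 0.081), another membrane-anchored enzyme. Only 2 of the 4 Mmp16 probe sets were above background. In the plasmin system, which activates several metalloproteinase precursors, 5 of 6 were. These included the activators Plau (9.55 ± 0.085) and Plat (10.16 ± 0.074), the receptor Plaur (9.97 ± 0.032) and the inhibitor Serpinb2 (7.42 ± 0.035). Only 1 of the 2 Plat probe sets was above background. Plg, the plasmin precursor made mainly by liver, was not (4.94 ± 0.024).

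The proprotein convertases, which activate Mmp14 inside the cell, were above background in 4 of 4 cases, against the 68.4% of all genes. Furin measured 8.45 ± 0.11, Pcsk5 6.88 ± 0.20, Pcsk6 7.94 ± 0.12 and Pcsk7 7.74 ± 0.0051. Only 2 of the 5 Pcsk5 probe sets were above background, and the count was 3 of 4 when unshared probe sets alone, or the median over the probe sets of a gene, were used. All 9 genes of docking, induction and clearance were above background (68.4% over all genes), among them Bsg (11.98 ± 0.076), which encodes the metalloproteinase inducer basigin, and Cd44 (11.95 ± 0.015), a hyaluronan receptor that docks Mmp9. The integrin genes Itgav and Itgb3, whose products pair as a receptor that binds Mmp2, were at 12.003 ± 0.037 and 6.51 ± 0.076. Of the probe sets, 3 of 4 were above background for Cd44, 3 of 5 for Itgav and 1 of 2 for Itgb3. In these lists every measured gene was above background, as were all measured genes of the plasmin system other than Plg.

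Of the adamalysins, membrane-bound and secreted relatives of which Timp3 inhibits several, 11 of 11 measured were above background, against 68.4% of all genes. Adam8 measured 6.94 ± 0.036, Adam9 11.21 ± 0.0041, Adam10 10.72 ± 0.027 and Adam12 9.53 ± 0.023. Of the AP-1 and ETS factors, which are known to drive metalloproteinase promoters, 9 of 10 were, beside the same 68.4%. Fos measured 9.34 ± 0.090, Fosl1 8.72 ± 0.056, Fosl2 10.79 ± 0.037 and Jun 10.62 ± 0.059, whereas Fosb was not above background (4.48 ± 0.060).

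**Figure D3:**
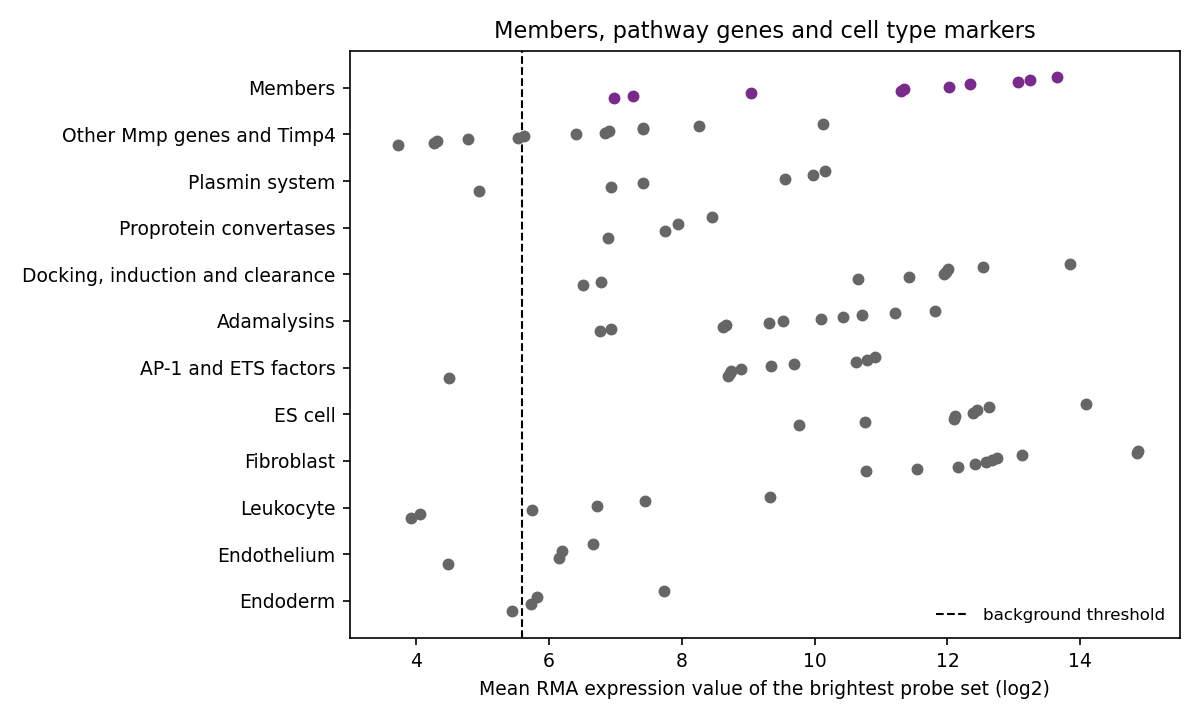
Mean RMA value (log2) of the brightest probe set of each gene, 1 point per gene, with the 10 metalloproteinase and inhibitor genes in the top row, the pathway lists and the cell type markers under it, and the threshold of 5.59 dashed. Both the ES cell and the fibroblast rows lie wholly to the right of the line, from 9.76 and from 10.78 upwards.

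The replicates gave the members nearly equal values. Of the 22 probe sets, 19 differed by less than 0.1 log2 units between the arrays, and 0 differed by 1.5-fold or by 1 log2 unit. Among all 22356 single-gene probe sets above the threshold on at least 1 array, 0.0984% passed 1.5-fold and 0.00% passed 1 log2 unit. Over the 21 member probe sets above background the SD of the difference was 0.0604, against 0.115 over all probe sets above background, whose levels were lower. Of the 21, 13 were higher on replicate 2 and 8 on replicate 1, and 56.4% of all such probe sets were higher on replicate 2.

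The largest difference was that of Mmp9, 0.20 log2 units higher on replicate 2 with 1416298_at and 0.11 with 1448291_at. Probe sets within 0.5 log2 units of the same level had an SD of the difference of 0.14 around 1416298_at and 0.18 around 1448291_at, and both Mmp9 differences fell within the spread of probe sets of like level. The third difference above 0.1 was 0.11, for the Timp3 probe set 1419088_at at a mean of 6.67, where the SD at like level was 0.15. For Timp1, Mmp3 and Timp2 the SD at like level was 0.036, 0.042 and 0.039, and their differences were 0.022, -0.022 and 0.038. All 22 member probe sets lay inside the central 95% of differences at their own level.

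**Figure D4:**
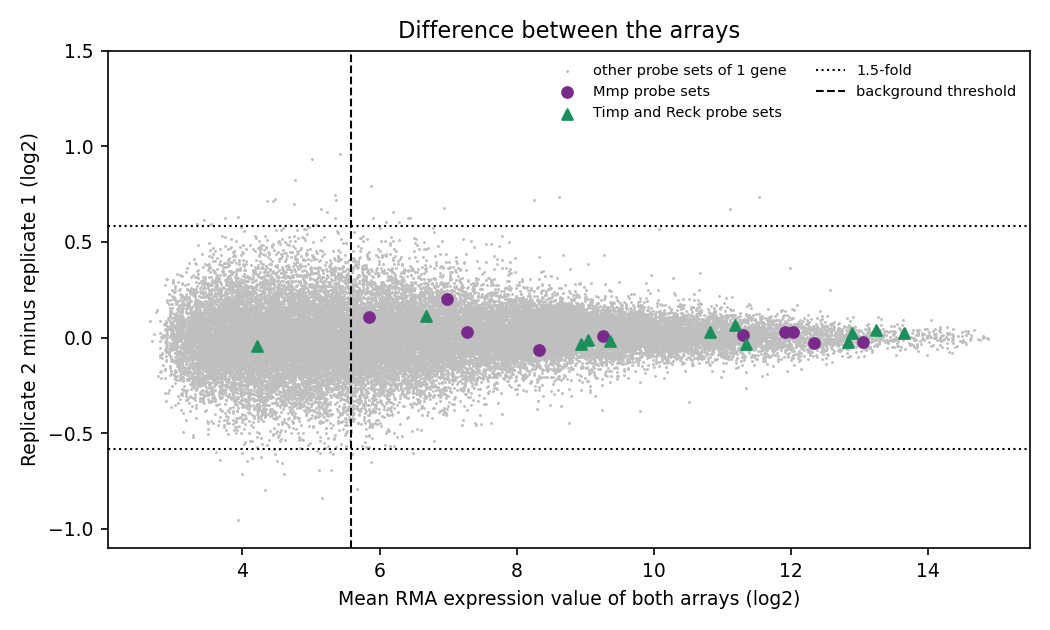
Difference between the arrays (replicate 2 minus replicate 1, log2) against the mean value (log2) for all probe sets of 1 gene, in grey, with the Mmp probe sets as circles and those of Timp1, Timp2, Timp3 and Reck as triangles; dotted lines mark 1.5-fold and the dashed line the threshold of 5.59. All 22 member points lie between the dotted lines, and the highest is Mmp9 at 0.20.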

How the data were processed

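The deposited values are log2 expression values, 1 for each of 45101 probe sets and each of 2 arrays, made by the authors with RMA, per the submitters' processing notes. Which arrays were normalized together, and with which RMA version, is not stated in the labels used here. Per the labels' protocols, cRNA was made from 6 µg of Trizol-extracted RNA. Quantile normalization hides a change shared by most genes. Precision is limited by the number of arrays, which carry no read depth. All columns were used, so unused ones numbered 0.

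From these values were computed, with Python 3.11.15, pandas 2.3.3 and statsmodels 0.14.6, the mean, the SD (n = 2) and the difference of the replicates, and calls above background. Symbols came from the platform annotation: 34958 probe sets had 1 symbol, 932 several and 9211 none here. All 10 member symbols matched the reference table by gene identifier. The brightest probe set stood for a gene. With 1 group there was no test. The threshold and the difference rule were run on simulated data with the same SD for all probe sets. The olfactory receptor genes checked there also set the threshold, so that run cannot tell how well the threshold works.

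The members and lists were chosen with earlier results of these data known. Every member was named, and in each other list, by list order, up to 4 genes above background and up to 2 below or at it. Mmp8, Mmp20 and Timp4 fall outside this rule and were named after their values were seen. Alternatives were the median of all probe sets, unshared probe sets alone (without _a_at, _s_at and _x_at), the 99th percentile, 37 vomeronasal and taste receptor genes as reference, every olfactory receptor probe set, each array alone, loess of the difference (fraction 0.3), centring and no filter on dim probe sets.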

Additional observations from a re-analysis of the deposited data

How the results depend on the processing

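All 20 alternative values of the main counts and of the SD stayed within 1.5 times the reported value. The count of members above background was 10 of 10 under the median of all probe sets, unshared probe sets, the 99th percentile (threshold 5.66), the vomeronasal and taste receptors (threshold 6.08) and each array alone. The count of member probe sets was 20 with the vomeronasal and taste receptors, which put 1448291_at of Mmp9 below the threshold, and 21 under the other 4 settings. The listed genes numbered 43 of 50 to 46 of 53. Mmp7 fell below the threshold at the 99th percentile. The remaining Mmp genes and Timp4 numbered 9 of 13 with unshared probe sets, against 8 in the main count. Timp4 was the highest of those not above background in the main count, so its call depended on this choice. The levels of genes with several probe sets depended on the choice: the median of all probe sets gave 12.13 for Mmp2, 6.41 for Mmp9, 9.26 for Mmp14, 11.83 for Timp2 and 10.28 for Timp3, and unshared probe sets gave 11.92 for Mmp2. Loess and centring changed the sign of 0 of the 10 differences. Of the marker lists, endoderm fell to 1 of 4 with the vomeronasal and taste receptors and 2 of 4 at the 99th percentile, leukocyte to 3 of 6 under both, and fibroblast to 9 of 10 with unshared probe sets. No paired analysis was possible because there is only 1 group. Signal over background limits what can be said of Mmp9, Mmp7 and Timp4.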
